A study of Mus musculus with 35 samples.

Results

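RNA-seq of neuroectoderm (NE) cells made from mouse embryonic stem cells held 28 genes that were lower in Tet3m/m than in Tet3+/+ cells in each of 3 experiments. They were chosen by a numerical rule from the measured values: the mean of log2(normalized count + 1) was at least 1.5 lower in Tet3m/m than in Tet3+/+ on day 3, with the empty vector of the Dnmt1 experiment and with the empty vector of the Tet3-CD experiment, and the mean Tet3+/+ level was at least 50 normalized counts in all 3. Of 16932 genes in all 3 tables, 12854 had that Tet3+/+ level. Mest was left out by name, and no Hox gene met the rule. The difference that chose these genes is therefore given with no test. Comparisons that share samples with the rule are described without a test. Counts of calls for them in the closing section show only how they depend on the processing. Members were tested where neither group had been used by the rule.

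The V6.5 stem cells, which are male and of mixed 129 and C57BL/6 background, had LIF withdrawn and received 1 µM retinoic acid (RA), and the untransfected cells were collected on day 3. Tet3m/m cells carry point mutations in the iron-binding site of the catalytic domain on both alleles. Tet3-/- cells carry a deletion of an early exon on both alleles. Both were made with CRISPR. Tet3 RNA itself was lower in Tet3m/m than in Tet3+/+. Its day 3 counts were 4576 to 5020 for Tet3+/+, 1945 to 2666 for Tet3m/m and 1796 to 2329 for Tet3-/-. Empty-vector cells of the Dnmt1 experiment had 2957 to 3075, 964 to 1125 and 2520 to 2571, in that order. The paper also reports less mutant Tet3 RNA and asks readers to weigh it. The part of this lower Tet3 level in the members' differences was not tested. On day 3 there were 3 Tet3+/+, 3 Tet3m/m and 2 Tet3-/- samples, with the mutant samples from separate clones. In the Dnmt1 experiment each genotype received a vector for myc-tagged DNMT1 or its empty vector at the start of differentiation and was then selected with blasticidin, with 2 samples per genotype and vector. In the Tet3-CD experiment each genotype received a tdTomato vector with the HA-tagged wild-type catalytic domain of TET3, or that vector empty, during differentiation, with 1 sample each, and was collected later than the other cells by the study's methods. Which clones the transfected samples came from is not given in the sources used here, so p-values there measure the spread between samples that may share a clone, and clone and genotype cannot be told apart. The cells had been grown on fibroblast feeders before differentiation. Recovered reads were 31155842 to 50845950 per sample, and the deposited values are counts that the authors divided by DESeq2 size factors.

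The experiments differed in time and handling, so levels are compared within an experiment.

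TET3 oxidizes 5-methylcytosine in DNA, the first step of active demethylation, and is induced when stem cells leave pluripotency for the neural lineage. RA enters the cell, is bound by small carrier proteins such as CRABP1, and acts through nuclear receptors that switch on patterning genes of the early neural tube. Neural progenitors then use proneural transcription factors, secreted signals such as WNT proteins and surface receptors to set their position and to begin making neurons.

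The 28 genes hold few of one kind. Transcription factors and chromatin proteins included Tfap2b, an AP-2 factor of neural crest and surface ectoderm, the zinc-finger proteins Bcl11a and Bnc1, the muscle histone methyltransferase Smyd1, and Uty, a Y-linked relative of a histone demethylase. Secreted and ligand genes were Wnt1, the heparin-binding growth factor Ptn, the angiopoietin Angpt1 and the neurotrophic factor Ndnf. Receptors and adhesion genes were the ephrin receptor Epha3, the sphingosine-1-phosphate receptor S1pr3 and the teneurin Tenm2. Enzymes and carriers were Crabp1, the microtubule-associated kinase Dclk1, the guanine exchange factor Arhgef6, the carbonic anhydrase Car14, the extracellular superoxide dismutase Sod3, the endothelial lipase Lipg, the protease inhibitor Serpinb9e, the Y-linked RNA helicase Ddx3y and the Y-linked translation factor Eif2s3y. Upk3b encodes a uroplakin and Magohb an exon junction protein. The other 4, Miat, Dnm3os, C130071C03Rik and Hdnr, are annotated as long non-coding RNAs, which is 14.3% of the members against 1.94% of the 12606 genes at the Tet3+/+ level with a RefSeq entry. Ddx3y, Uty and Eif2s3y have X-linked copies, and Magohb and Serpinb9e near relatives, so their reads may be split with those copies.

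C130071C03Rik and Dnm3os span miRNA hairpins, whose mature products on the host's strand are shown because the host transcripts were measured here and small RNAs were not. The sequences are those of RefSeq on GRCm38.p6, 5′ to 3′, with the seed (bases 2 to 8) in capitals. The first 2 lie in C130071C03Rik and the others in Dnm3os.
miR-9-5p (chr13:83738821-83738843, plus strand): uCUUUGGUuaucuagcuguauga
miR-9-3p (chr13:83738858-83738879, plus strand): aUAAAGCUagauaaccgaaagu
miR-199a-5p (chr1:162217844-162217866, plus strand): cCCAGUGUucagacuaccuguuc
miR-199a-3p (chr1:162217883-162217904, plus strand): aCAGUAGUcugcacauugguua
miR-214-5p (chr1:162223397-162223418, plus strand): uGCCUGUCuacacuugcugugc
miR-214-3p (chr1:162223438-162223459, plus strand): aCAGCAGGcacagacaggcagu
The 6 seeds all differ.

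RefSeq promoter sequence was found for 22 of the 28 genes, taken as the 250 bases before the first start listed. The median number of CG dinucleotides, the sites that DNMT1 methylates and TET3 acts on, was 9.5 in these 22 promoters against 16 in 9924 promoters of genes at the same Tet3+/+ level. The observed over expected CpG ratio had a median of 0.48 against 0.745, and the GC content a median of 52.2% against 60.8%. The members were not alike in this: Bnc1 had 39 CG and Miat and Wnt1 23 each, while Serpinb9e had 1 and Tenm2, Upk3b and Smyd1 had 2 each. The retinoic acid receptor half-site AGGTCA, sought on both strands, was in 3 of the 22 promoters (13.6%; 10.2% of the 9924), namely those of Dclk1, Serpinb9e and Upk3b. TATAAA was in 2 (9.09%; 5.81%) and the E-box CACGTG, which is its own reverse complement, in 1 (4.55%; 8.67%). No promoter of the 22 held more than 1 of these 3 motifs, so matches to different motifs did not overlap. A match describes the letters only. Below are 4 promoters, 5′ to 3′ on the gene's strand in GRCm38.p6, with every CG in capitals, to show the range from a promoter dense in CG (Miat) through Crabp1 and Tfap2b to one with a single CG (Serpinb9e).
Miat (chr5:112228949-112229198, minus strand): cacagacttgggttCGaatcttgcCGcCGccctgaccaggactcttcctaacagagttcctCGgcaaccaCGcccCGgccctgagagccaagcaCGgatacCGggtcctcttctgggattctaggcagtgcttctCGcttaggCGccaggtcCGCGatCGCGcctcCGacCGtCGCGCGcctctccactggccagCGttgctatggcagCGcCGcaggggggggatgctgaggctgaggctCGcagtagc
Crabp1 (chr9:54764498-54764747, plus strand): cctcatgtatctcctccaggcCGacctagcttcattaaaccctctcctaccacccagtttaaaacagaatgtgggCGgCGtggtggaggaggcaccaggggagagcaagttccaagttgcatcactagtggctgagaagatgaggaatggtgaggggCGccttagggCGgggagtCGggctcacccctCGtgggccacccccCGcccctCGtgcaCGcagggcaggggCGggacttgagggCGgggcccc
Tfap2b (chr1:19211804-19212053, plus strand): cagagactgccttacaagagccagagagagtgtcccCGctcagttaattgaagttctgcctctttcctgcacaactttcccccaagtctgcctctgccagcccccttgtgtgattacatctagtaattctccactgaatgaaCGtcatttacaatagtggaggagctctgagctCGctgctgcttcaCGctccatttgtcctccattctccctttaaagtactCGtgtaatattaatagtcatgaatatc
Serpinb9e (chr13:33249358-33249607, plus strand): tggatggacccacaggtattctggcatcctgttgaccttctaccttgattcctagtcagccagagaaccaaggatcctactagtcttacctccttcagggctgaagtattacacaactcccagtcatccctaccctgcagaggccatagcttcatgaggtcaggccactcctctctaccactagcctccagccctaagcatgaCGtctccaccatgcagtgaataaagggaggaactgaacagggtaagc

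Some libraries stood apart in ways that touch these genes. The Y-linked genes Uty, Ddx3y and Eif2s3y were at 0, 50.6 and 50.9, 4.10, 178 and 113, and 0, 144 and 79.4 in the 3 Tet3m/m samples of day 3, so that replicate 1 was near 0, and at 108 and 1315, 183 and 1996, and 74.2 and 2409 in the 2 Tet3-/- samples, so that replicate 2 was far above replicate 1. On chromosome 6, which carries Tet3, a run of genes was lower in Tet3m/m. Against the Tet3+/+ mean, chromosome 8 genes had medians of -0.38 to -0.30 in the Tet3m/m samples, -0.32 in Tet3-/- replicate 2 and 0.17 in Tet3-/- replicate 1 on day 3, and -0.46 to -0.36 in every Tet3m/m and Tet3-/- sample of the Dnmt1 experiment. Marker genes moved with genotype too. With the empty vector of the Dnmt1 experiment, the summed level of 6 pluripotency markers was 20453 to 20556 in Tet3+/+, 61116 to 62511 in Tet3m/m and 4150 to 4287 in Tet3-/-, and that of 6 fibroblast markers 14977 to 16518, 2818 to 3049 and 27408 to 27694. Among the fibroblast markers, Col1a1 was at 7499 to 8321, 1346 to 1498 and 19077 to 19225 in the same order. Thy1 went the opposite way, at 166 to 195, 314 to 361 and 61.4 to 99.1. Dcn was lower in both Tet3m/m and Tet3-/-, at 442 to 506, 46.6 to 46.9 and 380 to 417. The summed level of 10 neuroectoderm markers was 18774 to 21176 over the 3 genotypes, but single markers went opposite ways: Sox2 was at 5990.4 to 6301 in Tet3+/+, 14051 to 14731 in Tet3m/m and 2170 to 2379 in Tet3-/-, and Nes at 4370 to 4531, 897 to 986 and 11862 to 12451. In the Tet3-CD experiment, empty-vector Tet3+/+ and Tet3m/m had sums of 18299 and 19873 for fibroblast markers, 9827 and 19322 for neuroectoderm markers and 6599 and 13890.4 for pluripotency markers. Single markers went both ways there too. Nes was at 5410 and 15200 and Sox2 at 1175 and 1767, while Pax6 was at 518 and 255 and Zic1 at 663 and 242. Among the pluripotency markers, Nanog was at 626 and 3655 and Klf4 at 3206 and 1207. The endoderm sum was lower in Tet3m/m there, at 40131 and 10727, and higher with the empty vector of the Dnmt1 experiment, at 14153 to 14313 and 35104 to 36504. On day 3 the ranges of the pluripotency sum overlapped, at 4865 to 7466 in Tet3+/+ and 5620.2 to 15762 in Tet3m/m. In bulk RNA, fewer cells of a type and less RNA per cell cannot be told apart.

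**Figure D1:**
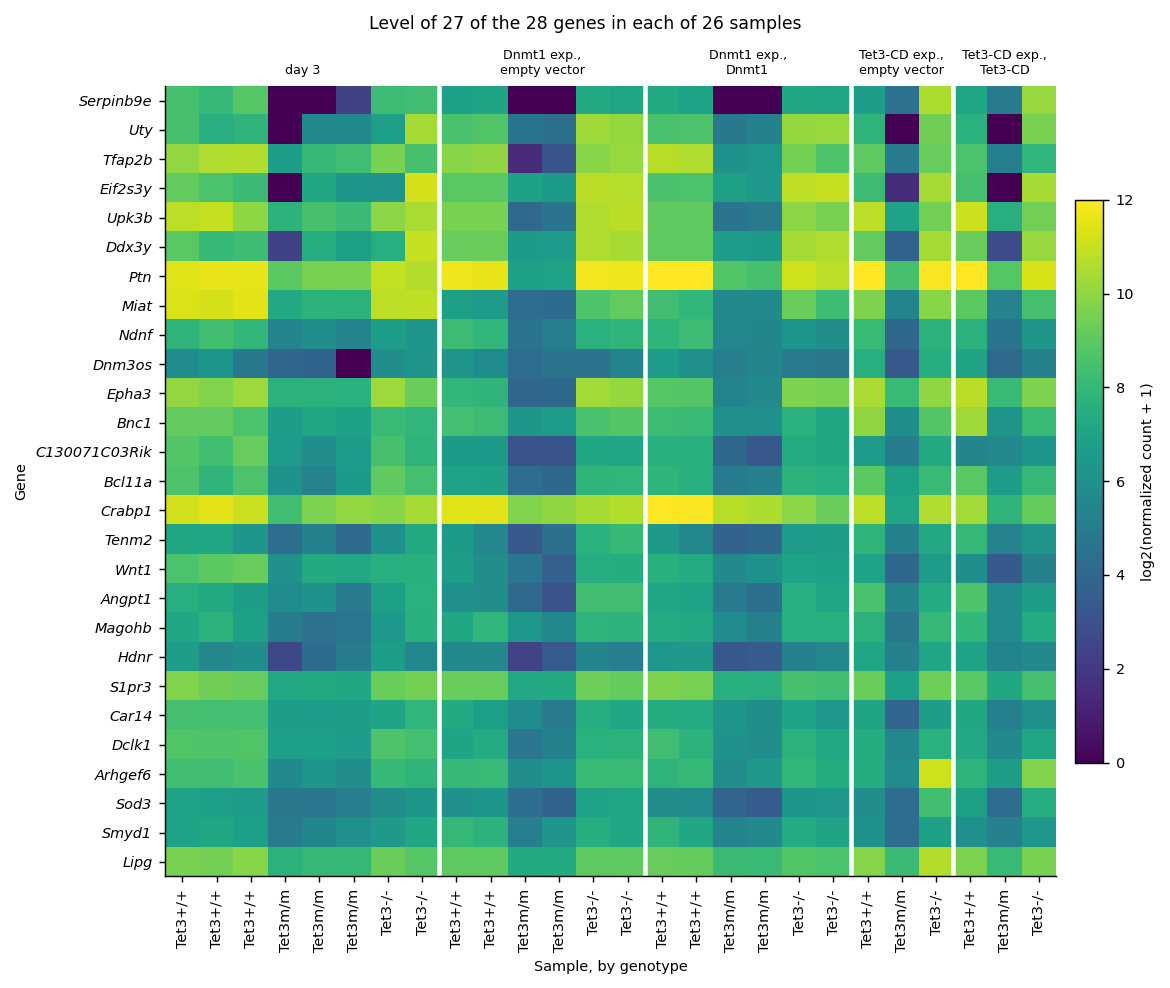
Level of 27 of the 28 genes (rows) in each of 26 samples (columns, by experiment, vector and genotype), as log2(normalized count + 1) in colour. The Tet3m/m columns are darker than the Tet3+/+ columns of the same block for all genes shown in the 3 blocks that chose them, while the Tet3-/- columns are as bright as Tet3+/+ or brighter for many genes, such as Epha3 at 1300.0 and 1114 in Tet3-/- against 243 and 232 in Tet3+/+ with the empty vector.

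In the samples that chose them, every Tet3m/m sample was below every Tet3+/+ sample for 28 of 28 genes on day 3 and with the empty vector of the Dnmt1 experiment. The genes were chosen by this difference, and no share over all genes is given for the count. The median difference of the 28 genes was -2.31 on day 3, -2.30 with that empty vector and -2.95 with the empty vector of the Tet3-CD experiment. Miat was at 2577, 2398 and 2894 in Tet3+/+ on day 3 and at 152, 214 and 209.8 in Tet3m/m. Crabp1 was at 2339, 2935 and 2113 against 327, 802 and 1058, and Ptn at 2730.3, 3117 and 3044 against 508, 736 and 766. These are abundant transcripts that stayed well above 0 in Tet3m/m.

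Tfap2b was at 1050.5, 1528 and 1571 in Tet3+/+ on day 3 and at 102, 264 and 317 in Tet3m/m, and Wnt1 at 393, 503 and 583 against 66.6, 162 and 151. Serpinb9e was close to absent in some mutant libraries and not in others: it was at 0, 0 and 4.07 on day 3 against 358, 254 and 451 in Tet3+/+, at 0 and 0 with the empty vector of the Dnmt1 experiment, but at 22.3 with that of the Tet3-CD experiment. Against a floor of 3 reads per library, the 0 of both empty-vector Tet3m/m samples is at least 31.1-fold lower than Tet3+/+.

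The members nearest the threshold show how far the choice rests on it. The mildest of the 3 differences was -1.51 for Smyd1, -1.54 for Magohb and -1.57 for Angpt1 among those just inside, and -1.46 for Smo, -1.43 for 0610030E20Rik and -1.42 for Unc5c and Insm1 just outside. Smo, the transducer of hedgehog signals, and Insm1, a factor of newborn neurons, thus missed the rule by under 0.1. Mest, which was left out by name, had differences of -6.40, -7.81 and -6.20. The number of members was 21 with a pseudocount of 5 and 41 with a Tet3+/+ level of at least 20. Without Tet3m/m replicate 1 of day 3, the library with the lowest Y-linked levels, 25 genes met the rule, 24 of them among the 28, and Crabp1, Ddx3y, Hdnr and Smyd1 did not.

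Tet3m/m and Tet3+/+ cells that had received the Dnmt1 vector were not used by the rule, and all 28 genes were lower in Tet3m/m there as well. In limma, all 28 passed an adjusted p under 0.05 with a fold change above 1.5, in the lower direction, against 10.1% of the 18055 genes tested. The median of the 28 differences was -2.21 on the log2 scale, and 0.01 over all genes tested. The 28 had been chosen as lower in the empty-vector samples of the same experiment, so the share describes the same contrast in further samples and not a separate population. The 22 genes outside the Y chromosome and the lower run of chromosome 6 had a median of -2.13, and all 22 passed.

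The largest differences there were in Serpinb9e, Tfap2b and Upk3b. Tfap2b was at 1693 and 1540.2 in Tet3+/+ and 71.5 and 82.3 in Tet3m/m, a difference of -4.38 (SE 0.32, limma adjusted p 2.61e-10). Upk3b was at 544 and 532 against 23.2 and 28.6, a difference of -4.33 (SE 0.17, limma adjusted p 9.29e-15). Serpinb9e was at 162 and 125 against 0 and 0, at least 53.5-fold lower against the floor of 3 reads per library. The smallest differences were in Dnm3os at -1.02 (SE 0.37, limma adjusted p 0.0319), Lipg at -1.03 (SE 0.11, limma adjusted p 1.5e-07), Car14 at -1.26 and Crabp1 at -1.31. Dnm3os was at 95.8 and 64.5 against 34.0 and 43.3, with no overlap but a wide spread, and it lost its call without Tet3+/+ replicate 1 (-0.73, limma adjusted p 0.251), Tet3m/m replicate 1 (-0.85, limma adjusted p 0.178) or Tet3m/m replicate 2 (-1.19, limma adjusted p 0.0561) of the Dnmt1 vector.

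Ligand and receptor genes were among the lower genes. Ptn was at 4715 and 4525 in Tet3+/+ and 422 and 361 in Tet3m/m (-3.56, SE 0.09, limma adjusted p 1.72e-17). Epha3 was at 456 and 440.2 against 41.1 and 51.1 (-3.26, SE 0.16, limma adjusted p 5.64e-13). No sample of one genotype overlapped the other for any of the 28 genes. With 2 samples per group and no share over all genes given, whether this is unusual cannot be said.

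Among the long non-coding RNAs, C130071C03Rik, which spans the miR-9-2 hairpin, was at 198 and 193 against 15.2 and 8.66 (-3.97, SE 0.29, limma adjusted p 3.4e-10). Miat was at 317 and 242 against 49.2 and 50.2 (-2.45, SE 0.26, limma adjusted p 8.95e-08). The Tet3+/+ level of Miat differed widely across experiments, at 2398 to 2894 on day 3, 97.4 to 113 with the empty vector of the Dnmt1 experiment and 824 with that of the Tet3-CD experiment, on tables normalized separately.

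The remaining genes away from the Y chromosome had differences between -3.01 for Hdnr and -1.03 for Lipg. Bcl11a was at 228 and 190.4 in Tet3+/+ and 31.3 and 36.4 in Tet3m/m (-2.59, SE 0.22, limma adjusted p 4.12e-09), and Bnc1 at 296 and 272 against 66.1 and 64.1 (-2.11, SE 0.19, limma adjusted p 7.2e-09). Dclk1 was at 316 and 214 against 71.5 and 58.9 (-1.98, SE 0.25, limma adjusted p 1.13e-06) and Arhgef6 at 221 and 265 against 60.8 and 87.5 (-1.72, SE 0.21, limma adjusted p 9.17e-07). The Tet3m/m levels of these 4 genes were all above 0 and all under those of Tet3+/+.

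Extracellular and membrane proteins followed. Sod3 was at 59.6 and 54.4 against 14.3 and 10.4 (-2.13, SE 0.32, limma adjusted p 1.24e-05), Car14 at 169 and 164 against 77.8 and 61.5 (-1.26, SE 0.29, limma adjusted p 0.00114) and Lipg at 586 and 569 against 289.6 and 275 (-1.03, SE 0.11, limma adjusted p 1.5e-07). Tenm2 was at 89.4 and 46.3 against 12.5 and 15.6 (-2.13, SE 0.40, limma adjusted p 0.000159), S1pr3 at 816 and 753 against 193 and 184 (-2.05, SE 0.12, limma adjusted p 6.26e-12), Angpt1 at 132 and 118 against 29.5 and 20.8 (-2.29, SE 0.31, limma adjusted p 2.74e-06) and Ndnf at 232 and 296 against 46.5 and 45.0 (-2.49, SE 0.24, limma adjusted p 1.74e-08). Sod3, Tenm2 and Angpt1 were thus at low levels in Tet3m/m, while Lipg and S1pr3 kept higher counts.

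Magohb was at 165 and 152 against 55.4 and 36.4 (-1.80, SE 0.27, limma adjusted p 1.29e-05), Smyd1 at 227 and 141 against 42.0 and 52.0 (-1.91, SE 0.30, limma adjusted p 2.1e-05) and Hdnr at 83.0 and 86.6 against 8.94 and 10.4 (-3.01, SE 0.41, limma adjusted p 3.09e-06). Wnt1 was at 195 and 168 against 50.1 and 70.2 (-1.59, SE 0.32, limma adjusted p 0.00029). For these 4 genes the lowest Tet3+/+ sample was still above the highest Tet3m/m sample.

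**Figure D2:**
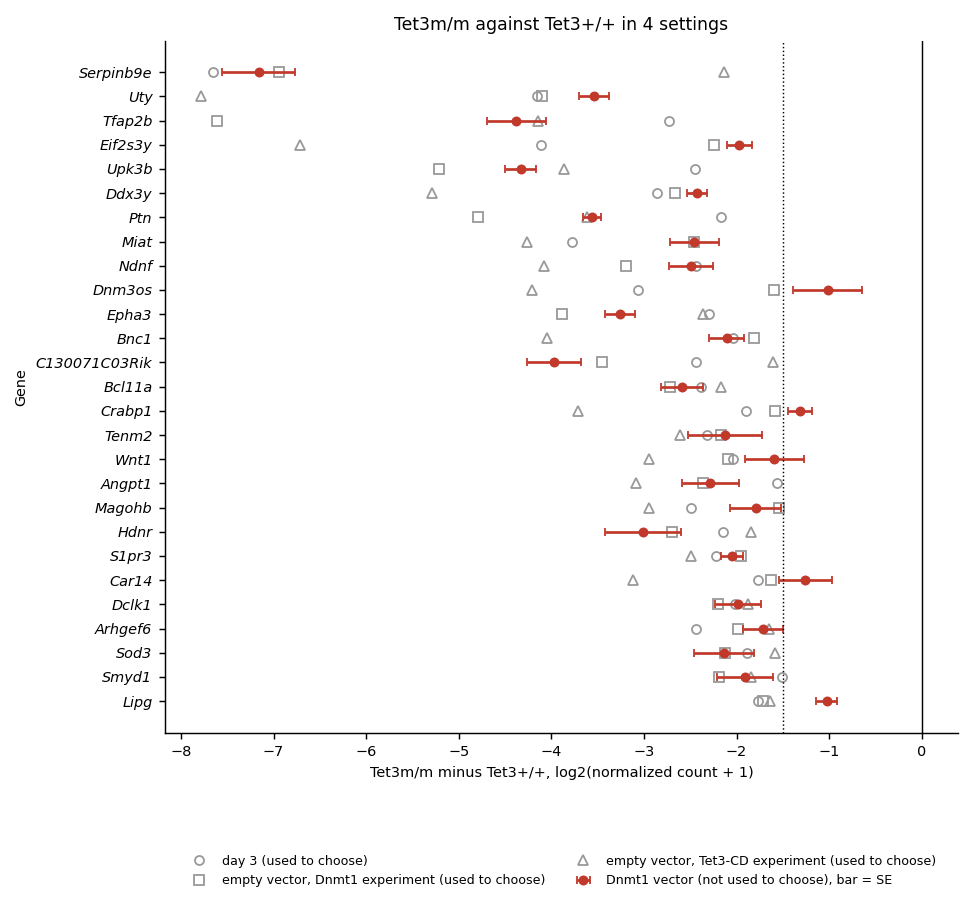
Tet3m/m minus Tet3+/+ on the scale of log2(normalized count + 1) for 27 of the 28 genes. Open grey symbols are the 3 differences used to choose the genes, red points the difference with the Dnmt1 vector (2 against 2 samples, bar = SE of the limma fit), and the dotted line marks -1.5. All red points lie below 0, from -7.16 for Serpinb9e, which is set by the pseudocount since both Tet3m/m samples are at 0, to -1.02 for Dnm3os.

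With the Tet3-CD vector, again in samples that the rule did not use but with 1 sample per group and so no test, 27 of 28 genes were lower in Tet3m/m than in Tet3+/+, with a median of -2.56 against 0.01 over all genes. The exception was C130071C03Rik, at 43.5 in Tet3+/+ and 49.8 in Tet3m/m. In Tet3m/m cells the Tet3-CD vector gave, against the empty vector, a median difference of 0.27 and a range from -1.52 (Eif2s3y) to 1.29 (Car14). The Tet3 count in the same 2 samples was 1849.9 with the empty vector and 5232 with the Tet3-CD vector. Crabp1 was at 136 without and 224 with Tet3-CD, against 1797 in empty-vector Tet3+/+ cells. Tfap2b was at 28.9 and 35.7 against 526, and Ptn at 363 and 458 against 4451. With Tet3-CD each of the 3 stayed nearer to the empty-vector Tet3m/m level than to that of Tet3+/+.

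The same genes were then read in Tet3-/- cells. On day 3 the Tet3+/+ samples are those the rule used, so the values are a description with no test. Of the 28 genes 21 were lower in Tet3-/- than in Tet3+/+ and 7 higher, with a median of -0.31, against 51.6% of 17915 genes lower and a median of -0.01. For 12 of the 28 genes every Tet3-/- sample was below every Tet3+/+ sample, and for 0 every one was above. Over all 17915 genes limma called 0.184% lower and 0.458% higher, which is a different measure. The share of all genes without overlap is not given here, so whether 12 is unusual cannot be said.

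Ndnf was at 104 and 77.4 in Tet3-/- against 224, 325 and 242 in Tet3+/+ (log2 difference -1.53), Tfap2b at 769 and 359.8 against 1050.5, 1528 and 1571 (-1.37) and Wnt1 at 187 and 197 against 393, 503 and 583 (-1.34). These 3 are among the 12 genes without overlap. Serpinb9e at 298 and 318, Epha3 at 1200.4 and 624 and S1pr3 at 641 and 726 in Tet3-/- lay within or close to the Tet3+/+ ranges of 254 to 451, 836 to 1207 and 598 to 858.

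With the empty vector of the Dnmt1 experiment, whose Tet3+/+ samples the rule also used, 23 of the 28 genes were higher in Tet3-/- than in Tet3+/+ and 5 lower, with a median of 0.43, against 49.6% of 18055 genes lower and a median of 0.00. Every Tet3-/- sample was above every Tet3+/+ sample for 18 genes and below for 5, again with no test and with no share over all genes to set beside it. Epha3 was at 1300.0 and 1114 in Tet3-/- against 243 and 232 in Tet3+/+ (log2 difference 2.34). Angpt1 was at 331 and 324 against 65.2 and 60.3 (2.37), Miat at 413 and 559 against 113 and 97.4 (2.19) and Tenm2 at 205 and 266 against 92.9 and 46.4 (1.81). Crabp1 went the other way, at 1382 and 1566 against 2722 and 2819 (-0.91), as did Dnm3os at 22.7 and 42.3 against 75.1 and 55.7 (-1.03).

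With the Dnmt1 vector, in samples that the rule did not use, 10 of the 28 genes were called lower and 6 higher in Tet3-/- than in Tet3+/+, against 13.0% and 11.9% of the 18055 genes tested, and the median was -0.32 against -0.01. Among those lower were Crabp1, Ndnf, Tfap2b, Dnm3os, Ptn, S1pr3, Hdnr, Bnc1 and Car14. Crabp1 was at 972 and 622 in Tet3-/- against 4005 and 3921 in Tet3+/+ (-2.35, SE 0.13, limma adjusted p 3.82e-12). Ndnf was at 77.2 and 59.5 against 232 and 296 (-1.94, SE 0.24, limma adjusted p 5.84e-07) and Tfap2b at 709 and 418 against 1693 and 1540.2 (-1.57, SE 0.32, limma adjusted p 0.00028). These 3 genes were below every Tet3+/+ sample in both Tet3-/- samples.

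The 6 higher genes were Uty, Ddx3y, Eif2s3y, Epha3, Upk3b and Miat, of which the first 3 are Y-linked. Of the 22 genes outside the Y chromosome and the lower run of chromosome 6, 8 were called lower and 3 higher, with a median of -0.42. Epha3 was at 823 and 732 against 456 and 440.2 (0.79, SE 0.16, limma adjusted p 0.000304), and Upk3b at 951 and 775 against 544 and 532 (0.67, SE 0.17, limma adjusted p 0.00179). Ptn was at 2219 and 1777 against 4715 and 4525 (-1.22, SE 0.09, limma adjusted p 4.69e-10) and S1pr3 at 362 and 324 against 816 and 753 (-1.19, SE 0.12, limma adjusted p 2.72e-08). The calls of Bnc1, Car14, Hdnr, Miat and Upk3b were lost without single libraries of the experiment. Their values then were -1.15 to -0.86 for Hdnr and -0.75 to -0.44 for Car14 over the libraries that ended the call, -0.51 for Bnc1 without Dnmt1-vector Tet3-/- replicate 2, 0.53 for Upk3b without replicate 1, and 0.15 and 0.47 for Miat without Tet3-/- replicate 1 or Tet3+/+ replicate 2.

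The direct comparison of Tet3-/- with Tet3m/m cells under the Dnmt1 vector also used samples outside the rule. Of the 28 genes, 23 were called higher and 1 lower in Tet3-/- than in Tet3m/m, against 19.1% and 19.8% of the 18055 genes, and the median difference was 2.19 against -0.01. The gene called lower was Crabp1, at 972 and 622 in Tet3-/- and 1698 and 1493 in Tet3m/m (-1.03, SE 0.13, limma adjusted p 5.29e-07). Upk3b was at 951 and 775 against 23.2 and 28.6 (5.00, SE 0.17, limma adjusted p 1.64e-16) and Epha3 at 823 and 732 against 41.1 and 51.1 (4.05, SE 0.16, limma adjusted p 3.66e-15). Car14, Ndnf, Lipg and Dnm3os were not called, at 0.53, 0.56, 0.54 and -0.46. Without Tet3m/m replicate 1 the call of Wnt1 was lost (0.74, limma adjusted p 0.11; 0.98 with all samples). Genes chosen as low in Tet3m/m had room to be higher elsewhere, and the Tet3m/m samples here may share clones with those that chose them.

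**Figure D3:**
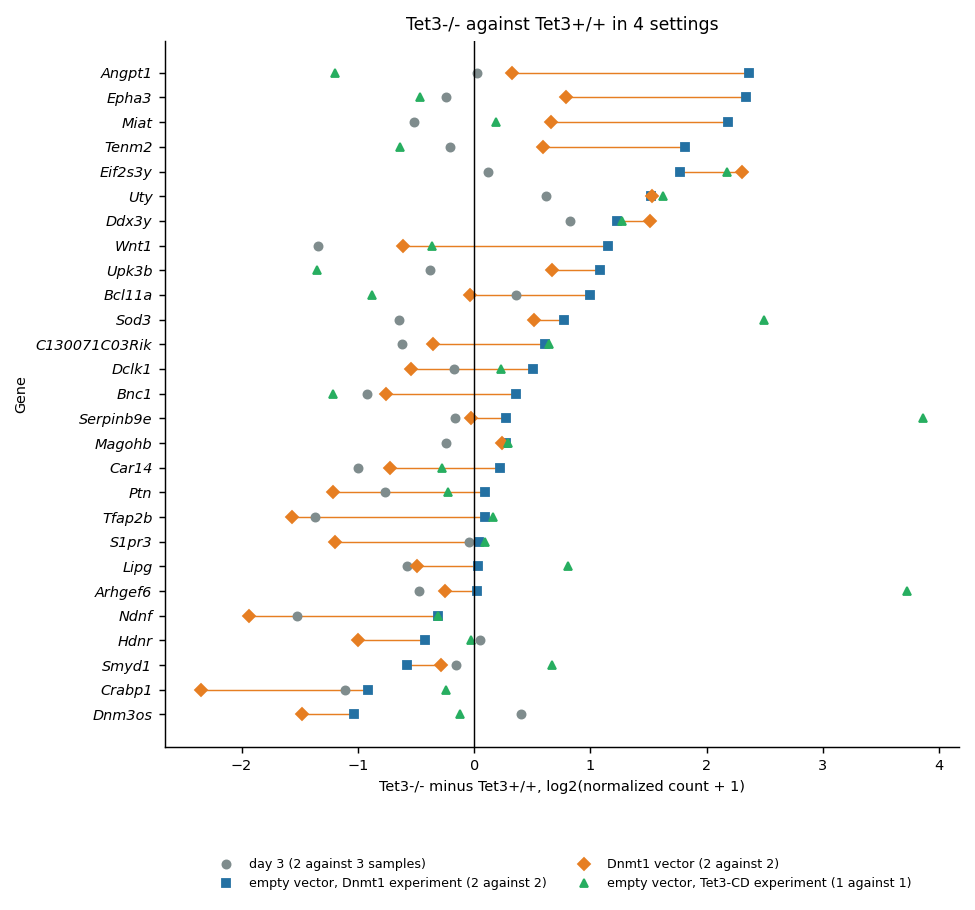
Tet3-/- minus Tet3+/+ on the scale of log2(normalized count + 1) for 27 of the 28 genes, on day 3 (grey), with the empty vector (blue) and the Dnmt1 vector (orange) of the Dnmt1 experiment, and with the empty vector of the Tet3-CD experiment (green, 1 sample per group). Orange points lie left of blue points for most genes: Ndnf moves from -0.31 to -1.94 and Angpt1 from 2.37 to 0.32.

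The Tet3-CD experiment gave a further set of knockout values, with 1 sample per group. With the empty vector, 14 of the 28 genes were lower and 14 higher in Tet3-/- than in Tet3+/+, with a median of 0.04 against 0.00 over all genes. Arhgef6 and Serpinb9e stood out, at 2278 and 1490.5 in Tet3-/- against 172 and 101 in Tet3+/+. In the day 3 Tet3-/- samples the same genes were at 265 and 225 and at 298 and 318, on a table normalized separately. With the Tet3-CD vector the Tet3-/- sample had lower levels than with the empty vector for 25 of the 28 genes, with a median of -0.74 against -0.02 over all genes, and Dnm3os fell furthest, from 174 to 35.9 normalized counts. Crabp1 went from 1519.5 to 575 and Ndnf from 217 to 76.5. The Tet3 count in these Tet3-/- samples was 2070 with the empty vector and 2759 with the Tet3-CD vector. Marker levels differed between them too, with Nes at 5042 and 12359 and Sox2 at 1963 and 1059. In Tet3+/+ 15 of the 28 genes were lower with the Tet3-CD vector and 13 higher, with a median of -0.08. No test was made, with 1 sample per group.

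The Dnmt1 vector was compared with its empty vector in each genotype. Dnmt1 itself was at 14679 and 15225 with the empty vector and 22799 and 23768 with the Dnmt1 vector in Tet3+/+, 11934 and 11285 and 20245 and 23211 in Tet3m/m, and 17356 and 17554 and 33380.5 and 39854 in Tet3-/-. No sample overlapped between the vectors in any genotype. The highest Dnmt1 levels were in Tet3-/-, so the vector effects were measured at unequal Dnmt1.

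In Tet3-/- cells, whose samples the rule did not use at all, 9 of the 28 genes were called lower with the Dnmt1 vector and 0 higher, against 1.02% and 2.51% of the 18055 genes tested, and the median was -0.44 against 0.01 over all genes. Of the 28 genes, 24 were lower with the Dnmt1 vector, against 47.9% of all genes, and 12 had an unadjusted p under 0.05, as did 4740 of the 18055. With edgeR and with DESeq2 on the recovered reads 10 were lower and 0 higher. Ndnf was at 205 and 226 with the empty vector and 77.2 and 59.5 with Dnmt1 (-1.65, SE 0.24, limma adjusted p 7.17e-05). Bnc1 was at 369 and 442 against 199 and 140.4 (-1.27, SE 0.19, limma adjusted p 0.000105), Ptn at 3489.8 and 3394 against 2219 and 1777 (-0.79, SE 0.09, limma adjusted p 7.25e-06) and S1pr3 at 645 and 579.8 against 362 and 324 (-0.84, SE 0.12, limma adjusted p 6.28e-05). In these 4 genes both Dnmt1-vector samples were under both empty-vector samples.

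Crabp1 at -0.92, Upk3b at -0.92, Angpt1 at -1.06, Tenm2 at -1.25 and Epha3 at -0.63 completed the 9. The last 3 lost their call without single samples: Angpt1 and Tenm2 without either empty-vector sample or without Dnmt1-vector replicate 2 (limma adjusted p from 0.0932 to 0.266), Tenm2 also without Dnmt1-vector replicate 1 (0.0963), and Epha3 without empty-vector replicate 1 (-0.52) or Dnmt1-vector replicate 2 (-0.55). Uty at -0.06, Ddx3y at 0.03 and Eif2s3y at 0.18 were not called.

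In Tet3m/m and Tet3+/+ cells the empty-vector samples were the ones used to choose the genes, so the values there are a description with no test. In Tet3m/m, 21 of the 28 genes were higher with Dnmt1 and 6 lower, with a median of 0.61, against 50.3% of all genes lower and a median of 0.00, and both Dnmt1-vector samples were above both empty-vector samples for 17 genes and below for 1. Tfap2b was at 1.83 and 7.81 with the empty vector and 71.5 and 82.3 with Dnmt1 in Tet3m/m (log2 difference 3.96), still below the 933 and 1017 of empty-vector Tet3+/+ cells. Ptn was at 111 and 119.8 against 422 and 361 (1.75), Crabp1 at 844 and 1013 against 1698 and 1493 (0.78) and Epha3 at 14.6 and 15.6 against 41.1 and 51.1 (1.54).

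In Tet3+/+, 17 of the 28 genes were higher with Dnmt1 and 11 lower, with a median of 0.30, against 49.6% of all genes lower and a median of 0.00. Both Dnmt1-vector samples were above both empty-vector samples for 15 genes and below for 4. Miat was at 113 and 97.4 with the empty vector and 317 and 242 with Dnmt1 (1.39), and Epha3 at 243 and 232 against 456 and 440.2 (0.91). Over all 18055 genes limma called 1.78% higher and 0.681% lower with Dnmt1 in Tet3m/m, and 0.421% and 0.753% in Tet3+/+.

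Side by side, the differences between the Dnmt1 and the empty vector had opposite signs for several genes. Epha3 had 0.91 in Tet3+/+, 1.54 in Tet3m/m and -0.63 in Tet3-/-, and Angpt1 0.98, 1.06 and -1.06. Other genes called lower in Tet3-/- did not go up in Tet3m/m. Bnc1 had -0.15, -0.44 and -1.27, and Tenm2 -0.03, 0.01 and -1.25. For 11 of the 28 genes both Dnmt1-vector samples were above both empty-vector samples in Tet3+/+ and below both in Tet3-/-, and for 1 gene, Eif2s3y, the reverse held. No share over all genes is given for this count, nor for the counts without overlap within Tet3m/m and Tet3+/+ above. The difference between the genotypes' vector effects was not tested, since it shares the empty-vector samples with the rule.

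**Figure D4:**
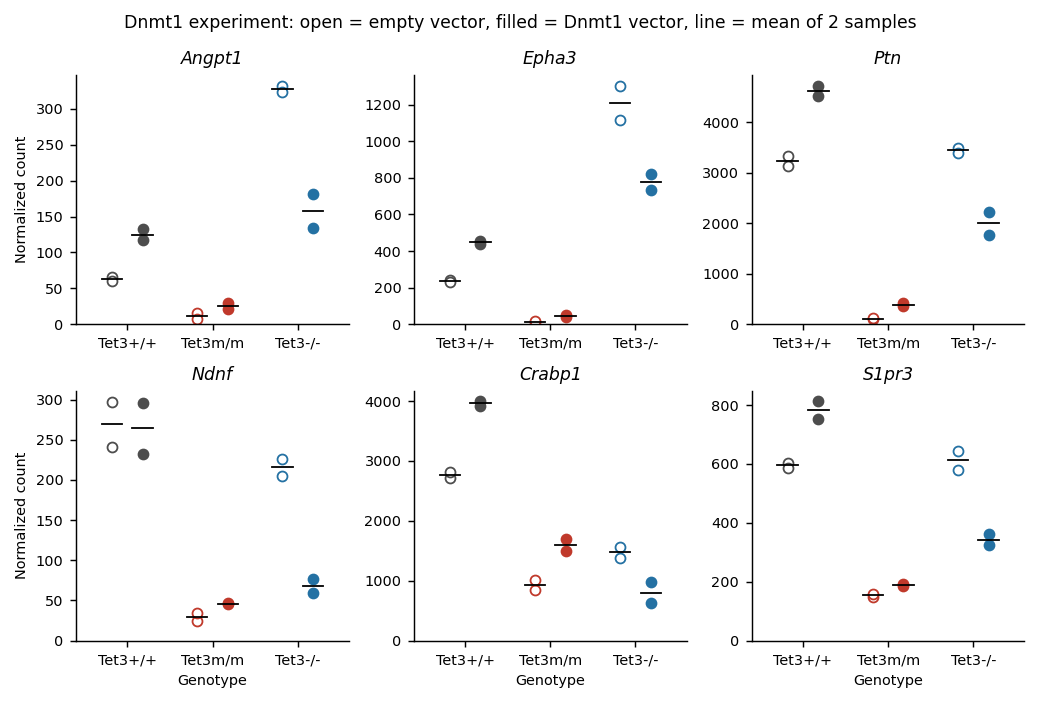
Normalized counts of Angpt1, Epha3, Ptn, Ndnf, Crabp1 and S1pr3 in the 12 samples of the Dnmt1 experiment, by genotype, with the empty vector (open) and the Dnmt1 vector (filled); each point is 1 sample and each line a mean of 2. In Tet3-/- the filled points lie below the open ones in all 6 genes, such as S1pr3 at 645 and 580 against 362 and 324, while in Tet3m/m they lie above. All 6 are among the genes whose vector samples lay on opposite sides in these genotypes, so they do not stand for the other genes.

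The position of the genes was examined by name in the RefSeq annotation of GRCm38.p6, which is not the assembly named in the study's methods, so that only chromosome and order are given. All 28 have a chromosome. The Y chromosome holds 3 of the 28 and only 3 of the 12606 genes at the same Tet3+/+ level, and chromosome 6 holds 4 (14.3% of members, 4.69% of those genes). On chromosome 6, Ptn, Ndnf and Smyd1 lay at places 126, 280 and 295 of 801 tested genes, before Tet3 at 360, and Magohb at 705. The 20 neighbours of Ptn, Ndnf and Smyd1 had median day 3 differences between Tet3m/m and Tet3+/+ of -0.88, -0.95 and -0.92, and those of Magohb 0.06. With the Dnmt1 vector the medians were -0.70, -0.52, -0.57 and 0.05. The 3 genes' own differences on day 3 were -2.16, -2.44 and -1.51. The rule required -1.5 or lower there, so a comparison with the neighbours' day 3 medians was fixed in advance. With the Dnmt1 vector, in samples that the rule did not use, the same 3 genes had -3.56, -2.49 and -1.91. In Tet3-/- the running median of 51 genes around them was between -0.02 and 0.07.

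**Figure D5:**
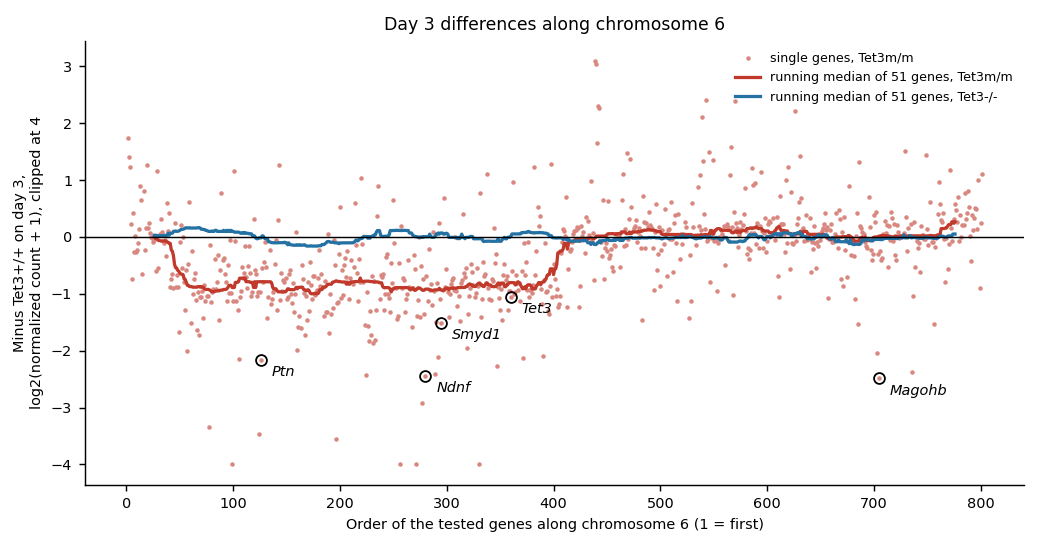
Day 3 difference from Tet3+/+ along the order of the 801 tested genes of chromosome 6, for single genes in Tet3m/m (points, those under -4 drawn at -4) and as running medians of 51 genes in Tet3m/m (red) and Tet3-/- (blue), on the scale of log2(normalized count + 1). The red line lies near -0.9 at Ndnf and Smyd1 and near 0 at Magohb, while the blue line stays near 0.

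For the other members away from the Y chromosome, the median of the 20 neighbours on day 3 ranged from -0.42 to 0.12, and the lowest was beside Hdnr on chromosome 8. Hdnr was at 106, 46.7 and 62.3 in Tet3+/+ and 5.12, 17.7 and 31.6 in Tet3m/m on day 3. Serpinb9e lies on chromosome 13 among neighbours with a median of -0.09, and Crabp1 on chromosome 9 among neighbours with -0.09. The part of the chromosome 6, 8 and Y shifts in the members' differences was not tested; the 22 genes away from the Y chromosome and the lower run of chromosome 6 gave the values stated above.

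With the Dnmt1 vector the 3 Y-linked members were lowest in Tet3m/m and highest in Tet3-/-. Uty was at 377 and 394 in Tet3+/+, 27.7 and 37.2 in Tet3m/m and 1102 and 1126 in Tet3-/-, Ddx3y at 511 and 514, 96.5 and 92.7, and 1388 and 1543, and Eif2s3y at 376 and 386, 111 and 84.0, and 1835 and 1945. This order did not hold on day 3, where Tet3-/- replicate 1 was below every Tet3+/+ sample for all 3, with Uty at 108 against 187 to 359. Among 5 other Y-linked genes in the tables, Kdm5d was called lower in Tet3m/m with the Dnmt1 vector (-2.31), and Uba1y (-0.94) and Usp9y (-1.40) were called lower in Tet3-/-, so that Uba1y and Usp9y went against the 3 members there. Their levels were low. Kdm5d was at 17.0 and 16.1 in Tet3+/+ and 3.58 and 1.73 in Tet3m/m. In Tet3-/- Uba1y was at 28.9 and 26.2 and Usp9y at 14.5 and 3.57. In Tet3+/+ these were at 51.1 and 56.4, and at 17.0 and 26.2. In the Tet3-CD experiment Uty was at 0 in both Tet3m/m samples.

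The wider pathways were read from lists of known genes, without the members, and the genes named from them were picked after their values were seen. Of 23 proneural and Notch genes tested, 12 were called lower and 0 higher in Tet3m/m with the Dnmt1 vector, with a median of -0.79 against 0.01 over all genes. Neurog1 changed by -3.39 (SE 0.29, limma adjusted p 3.66e-09), Neurog2 by -2.79 (SE 0.46, limma adjusted p 3.16e-05) and Hes5, a Notch target, by -1.97 (SE 0.50, limma adjusted p 0.0027), while the Notch ligand Dll1 had 0.39 (SE 0.20, limma adjusted p 0.121). In Tet3-/- with the same vector 7 of the 23 were lower and 1 higher, while with the empty vector 4 were lower and 6 higher (median 0.26; 13.9% and 11.0% of all genes), and Dll1 was among the lower at -1.27. Neurog1 was at -0.30 there and was not called. Of 9 other neural crest genes, the tissue that Tfap2b marks, 5 were lower and 1 higher in Tet3m/m, among them Pax3 at -1.75 and Msx1 at -1.81, with Foxd3 higher at 2.27. In Tet3-/- 7 of the 9 were lower and 1 higher with the Dnmt1 vector, and 2 lower and 1 higher with the empty vector (median 0.10).

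Of 23 other RA response genes, 9 were lower and 2 higher in Tet3m/m, and 1 lower and 9 higher in Tet3-/-, both with the Dnmt1 vector. Crabp2, the other cellular RA-binding protein, was at -1.86 (SE 0.05, limma adjusted p 5.86e-17) in Tet3m/m and at -0.52 (SE 0.05, limma adjusted p 3.45e-08) in Tet3-/-, the latter under the fold of 1.5 and so not called. The RA-degrading enzyme gene Cyp26b1 was at -2.09 in Tet3m/m and 1.92 in Tet3-/-, and the receptor gene Rarb at -0.85 and 0.93, all 4 called. Crabp1 was lower in both genotypes, at -1.31 and -2.35.

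Of 46 other ligand and receptor genes, 18 were lower and 14 higher in Tet3m/m with the Dnmt1 vector, with a median of -0.27. The WNT ligand genes Wnt3a at -1.88, Wnt6 at -4.01, Wnt7b at -2.16 and Wnt10a at -4.32 were lower beside Wnt1, and the WNT target Axin2 at -1.09, while Fgf8 at 2.47 was higher. In Tet3-/- Wnt6 and Wnt10a were higher, at 1.94 and 1.96, and Fgf8 lower at -1.09. Of 24 neural progenitor genes 10 were lower and 8 higher in Tet3m/m (median -0.10), and of 18 neuronal genes 2 were lower and 8 higher (median 0.63). Of 20 pluripotency genes 18 were higher in Tet3m/m (median 1.41) and 16 lower in Tet3-/- (median -1.99), of 20 endoderm genes 19 higher and 15 lower, and of 11 fibroblast genes 7 lower and 1 higher in Tet3m/m and 2 lower and 4 higher in Tet3-/-. Of 37 imprinted genes, among them Mest, 17 were lower and 2 higher in Tet3m/m (median -0.58), and 3 lower and 6 higher in Tet3-/-. Of 19 germline genes known to be silenced by methylation 3 were lower and 11 higher in Tet3m/m and 13 lower and 0 higher in Tet3-/-, of 19 mesoderm genes 9 lower and 5 higher and 8 lower and 4 higher, and of 15 genes of the DNA methylation machinery 2 lower and 3 higher and 5 lower and 2 higher. These counts stand beside 1832 of the 18055 genes called lower (10.1%) and 1808 called higher in Tet3m/m, and 13.0% lower and 11.9% higher in Tet3-/-, all with the Dnmt1 vector. The part of these other cell types in the members' differences was not tested.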

How the data were processed

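RNA-seq of 26 samples was read from 3 deposited tables of signal values, which the authors made by trimming reads with Trim Galore 0.6.7, mapping them with STAR 2.7.9a to mm39 by the study's methods (the submitters' processing notes list mm10), counting them with featureCounts (largest overlap) and dividing the counts by DESeq2 size factors. Whole reads were recovered from the steps of the values for 100.0% of them (tolerance 0.01). The other 9 samples (bisulfite, CUT&Tag and hmeDIP libraries) were not used here.

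Genotype, vector and replicate came from the titles. In the table of the Dnmt1 experiment a pair of columns has the same name, so the empty-vector Tet3+/+ samples carry no number. The members and gene lists were chosen with earlier results of these data known. The members are named except 1 gene that is not reported here, with the 4 genes just outside the threshold, Tet3, Dnmt1 and Mest; other genes were picked after their values were seen.

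Genes with a mean value of at least 10 were tested with limma 3.58.1 (trend) on log2(value + 1), all groups of a table in one fit, with Benjamini-Hochberg adjustment over all genes. A gene was called at an adjusted p under 0.05 and a fold above 1.5; fold changes on this scale understate those of low genes. Fits of edgeR 4.0.16 and DESeq2 1.42.0 on the recovered reads, pseudocounts of 0.1 and 5, other filters, fits of only the groups compared, a replicate block and leaving out each sample were alternatives; of 18055 genes, edgeR called 3764 and limma 3640 for Tet3m/m against Tet3+/+ with the Dnmt1 vector. The scripts were tested on simulated data. The 2 Dnmt1-experiment samples of a group may come from one clone. Promoters and miRNAs are those of RefSeq (GRCm38.p6).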

Additional observations from a re-analysis of the deposited data

Results flagged for a closer look

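For 12 of the 27 genes given here by name, both samples with the Dnmt1 vector lay above both with the empty vector in one genotype and below both in another. No share over all genes is given for this count. The difference was not tested, and the empty-vector Tet3+/+ and Tet3m/m samples are those that chose the genes. Values are Dnmt1 minus empty vector on the log2 scale, in Tet3+/+, Tet3m/m and Tet3-/-. Among ligand and receptor genes, Angpt1 had 0.98, 1.06 and -1.06. Wnt1 had 1.22, 1.71 and -0.55, and Ptn 0.52, 1.75 and -0.79. Epha3 had 0.91, 1.54 and -0.63, and S1pr3 0.40, 0.29 and -0.84. Ndnf, whose samples overlapped in Tet3+/+, had 0.67 in Tet3m/m and -1.65 in Tet3-/-. These genes were higher with Dnmt1 in Tet3m/m and lower in Tet3-/-. The transcription factor genes Tfap2b and Bcl11a had 0.73, 3.96 and -0.93, and 0.82, 0.96 and -0.21. The RA carrier gene Crabp1 had 0.52, 0.78 and -0.92, the carbonic anhydrase gene Car14 0.33, 0.70 and -0.62, and the lipase gene Lipg 0.14, 0.83 and -0.38. The Y-linked Eif2s3y, with overlap in Tet3m/m, went the other way, with -0.36 in Tet3+/+ and 0.18 in Tet3-/-. No group of these tables has 4 or more samples, so no sample was tested for standing apart from its group. The libraries said in the Results to stand apart were only described.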

How the results depend on the processing

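No result changed direction under any alternative. All 28 genes stayed lower in Tet3m/m than in Tet3+/+ with the Dnmt1 vector, and 26 to 28 were called over the alternatives. The comparisons of the knockout with Tet3+/+ on day 3 and of the vectors in Tet3m/m and Tet3+/+ share samples with the rule, so their counts are a description and no evidence of a change. For the knockout on day 3 the number past the threshold (1) became 2 with a pseudocount of 5, 7 with only the groups compared in the fit, 6 with DESeq2, and 0 to 7 when single samples were left out. For the Dnmt1 vector in Tet3m/m (11) it became 7 with only the groups compared. For the Dnmt1 vector in Tet3+/+ (5) it became 8 with a pseudocount of 5, 9 with only the groups compared, 9 with edgeR, 8 with DESeq2, and 1 to 8 when single samples were left out. The cause of these changes was not tested. As a limit of the smaller fits, they have fewer residual degrees of freedom. A lone sample left in a group is assumed to vary like the others. With the replicate number as a block, 28 genes were called for Tet3m/m against Tet3+/+ and 14 for Tet3-/- against Tet3+/+ with the Dnmt1 vector, 24 for Tet3-/- against Tet3m/m, 9 and 11 for the vector in Tet3-/- and Tet3m/m, and 1 for the knockout on day 3. Deviations of same-numbered samples correlated at -0.098 to 0.082, so the numbers do not pair the samples. No paired analysis was possible for comparisons with the empty-vector Tet3+/+ samples because their columns carry no numbers. For single genes, 4577 results of the alternatives kept their side of the threshold, 82 passed it and 86 lost it. Over all 17915 genes of day 3, 115 were called for the knockout by limma, 86 by edgeR and 917 by DESeq2. Over all 18055 genes of the Dnmt1 experiment, limma, edgeR and DESeq2 called 444, 467 and 438 for the vector in Tet3m/m. In Tet3+/+ they called 212, 270 and 264. Scaling by TMM changed a sample's values by factors of 0.9949 to 1.008. Each group holds 1 to 3 samples, which limits what can be called.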
